A study of Rattus norvegicus with 4 samples.

Results

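The fibroblast growth factor (FGF) ligands Fgf1, Fgf2, Fgf7, Fgf9, Fgf10 and Fgf18 and the receptors Fgfr1, Fgfr2, Fgfr3 and Fgfr4 were followed in cultured rat peritubular myoid cells, the contractile cells of the tubule wall in the testis. Their probes were found by gene name, ignoring case and the endings for predicted or mapped genes, and older symbols of the 10 genes were searched too. This gave probes for all 10 genes, of 15181 genes named on the array through RefSeq. They were 13 of the 41012 probes that were not controls, all by the current symbol, with 2 probes each for Fgf2, Fgfr1 and Fgfr2 and 1 for each other gene. The study set cells given testosterone (1e-07 M, in pulses) against control cells, with 2 arrays in each group. All cells were isolated from testes of rats aged 40 days and kept for 4 days in medium with defined growth factors, which the labels do not name. The labels do not say what the control cells received in place of testosterone. Nor do they say if replicates are separate cultures, so p-values reflect the spread among these 4 arrays alone. Part of that spread followed the replicate number in both groups. What made it was not tested, and it may not be the spread among cultures.

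Most FGFs are secreted proteins that bind heparan sulfate and activate receptor tyrosine kinases at the cell surface. The receptors signal through the adaptor Frs2 to the Ras-ERK kinases, and ERK activity induces inhibitors of the same pathway, among them the Sprouty proteins and Dusp6. Fgf7 and Fgf10 are made by stromal cells and act on the epithelial splice form of Fgfr2, and in the prostate both have been studied as candidate mediators of androgen action. In mice Fgf9 is needed for testis formation.

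Androgen receptor binds DNA at pairs of the sequence AGAACA in opposite orientation. The RefSeq table of promoters (build GRCr8) held 9 of the 10 genes, all but Fgfr1, and the 250 bases before each start were searched on both strands for AGAACA, which reads TGTTCT on the other strand, and for the full pair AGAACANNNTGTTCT. Of the 9 genes, 1 held the shorter sequence, Fgf2 at 223 bases before its start, against 17.5% of all 33469 promoters. None of the 9 held the full pair, which 4 of the 33469 did (0.0120%). A match is a description of these letters only. The promoters of Fgf2, Fgf7 and Fgfr2 are shown because Fgf2 held the match and because Fgf7 and Fgfr2 had probes far above background. Capitals mark AGAACA.
Fgf2 (chr2:122164204-122164453, GRCr8, plus strand): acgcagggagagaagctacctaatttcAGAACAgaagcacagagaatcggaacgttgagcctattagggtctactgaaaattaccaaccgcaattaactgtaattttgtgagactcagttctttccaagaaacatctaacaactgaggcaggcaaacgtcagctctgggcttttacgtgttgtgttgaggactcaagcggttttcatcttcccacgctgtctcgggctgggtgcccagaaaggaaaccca
Fgf7 (chr3:133735377-133735626, GRCr8, plus strand): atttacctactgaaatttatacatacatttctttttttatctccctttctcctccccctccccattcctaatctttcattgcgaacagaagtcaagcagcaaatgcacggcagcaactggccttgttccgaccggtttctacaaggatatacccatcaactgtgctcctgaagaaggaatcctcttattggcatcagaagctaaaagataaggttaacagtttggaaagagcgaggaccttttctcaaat
Fgfr2 (chr1:194280915-194281164, GRCr8, minus strand): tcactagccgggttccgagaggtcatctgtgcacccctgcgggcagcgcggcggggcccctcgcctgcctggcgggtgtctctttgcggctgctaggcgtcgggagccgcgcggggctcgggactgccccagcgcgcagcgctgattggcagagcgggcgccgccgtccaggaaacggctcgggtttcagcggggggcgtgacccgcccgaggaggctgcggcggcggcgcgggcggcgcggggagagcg
The Fgfr2 promoter was 76.8% G and C with 37 CpG dinucleotides, and those of Fgf2 and Fgf7 were 46.8% and 41.6% with 9 and 5 CpG, where the median promoter had 51.2% and 5.

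Expression was measured on 1-colour Agilent arrays, all on 1 slide and in 1 scan. Between 63.5% and 68.2% of the spots that were not controls were well above background, the scanner software's flag for detection. On control replicate 1 a patch of spots read low. Of 115 spots there that lay over 3 (log2) below the other 3 arrays, all 115 were in columns 57 to 85, against 1 such spot on the other arrays together. Of the 13 FGF probes 8 lay or began in those columns, and none lay in a tile of the array with 2 or more such spots. Cell type markers were mixed. Of 8 peritubular and smooth muscle markers with a probe 7 were detected, but Acta2 and Myh11 had no probe under those names and Cnn1 was not well above background. Detected markers of other cells were 5 of 7 for Leydig cells, 7 of 7 for macrophages, 7 of 10 for Sertoli cells, 4 of 7 for germ cells, 3 of 6 for endothelium and 6 of 6 for fibroblasts. These counts do not give levels. Leydig signals ran from 25.5 scanner units for Cyp17a1 to 28111 for Star, and macrophage signals from 85.4 for Cd163 to 38978 for Cd68. Muscle signals ran from 2.02 for Lmod1, detected on 1 of 2 testosterone arrays, to 27523 for Myl9. In such bulk RNA, fewer cells of a type and less RNA per cell cannot be told apart.

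Levels below are log2 processed signals minus the array's 75th percentile. Signals are in scanner units. Neither was set against that of another probe as an amount of transcript. Testing required detection on both arrays of either group, which 25880 probes (63.1%) met. Of the 10 FGF genes 7 were tested with 10 probes, namely 3 of 6 ligands and 4 of 4 receptors. Fgf1, Fgf9 and Fgf10 were not.

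In limma, 0 of the 10 tested FGF probes reached an adjusted p under 0.05, and each had an adjusted p of 1.00. Of all 25880 probes 0 were called higher (0%) and 0 lower (0%). At an unadjusted p under 0.05 there was 1 FGF probe, where 208 of all tested probes were (0.804%). The testosterone arrays were both above the controls for 0 of the 10 FGF probes and both below for 2, where 6.13% and 8.95% of all tested probes were. Differences (testosterone minus control) ran from -0.79 to 0.37, with 6 positive and 4 negative, where 47.7% of all tested probes were positive. Their median was 0.07, against -0.0087 over all tested probes. None reached 2-fold, where 0.549% of all tested probes were at least 2-fold higher with the groups apart and 0.147% at least 2-fold lower. At 1.5-fold with the groups apart there was 1, the upstream Fgfr2 probe, where 1.79% of all tested probes were. In this fit, which has no term for replicate number, the half-widths of the 95% intervals ran from 0.52 to 1.25. A difference of that size or less could thus not be told from 0. The labels do not pair the numbers. With such a term the Fgf7 interval ran from -0.21 to 0.61 and that of Fgfr3 from -0.86 to 1.61.

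**Figure D1:**
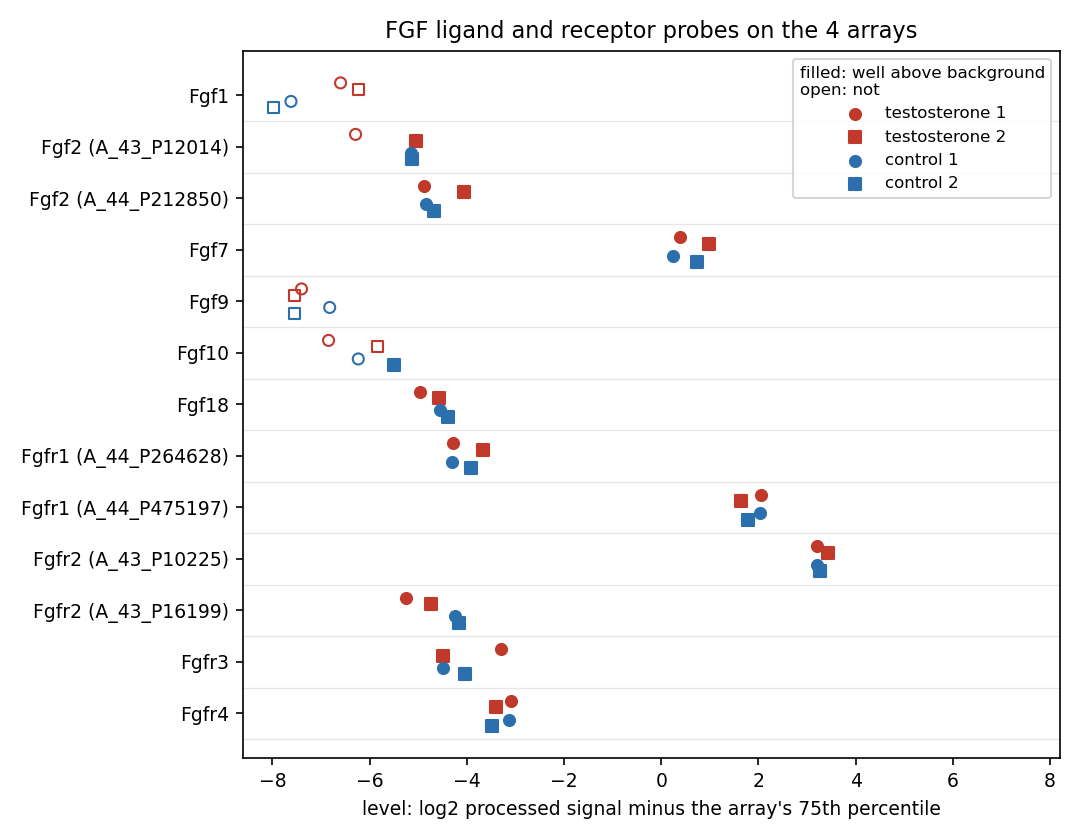
Level of each FGF ligand and receptor probe on each of the 4 arrays (x axis, log2 processed signal minus the array's 75th percentile). Red points are testosterone and blue points control arrays, circles are replicate 1 and squares replicate 2, and open points were not well above background. The groups lie apart for Fgf18, the Fgfr2 probe A_43_P16199 and the undetected Fgf1.

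Among the ligands Fgf7, keratinocyte growth factor, was far above background on every array. Its signals were 607.5 and 698 units on the testosterone arrays and 496 and 658 units on the control arrays. Its levels were 0.39 and 0.98 with testosterone and 0.24 and 0.73 in control. The groups overlapped, and in both the array numbered 2 read higher, by 0.59 with testosterone and by 0.48 in control. The means were 0.69 ± 0.42 and 0.49 ± 0.34 (SD, n = 2 each), a difference of 0.20 with an interval from -0.63 to 1.03 (1.15-fold, 0.65 to 2.05; adjusted p = 1.00 in limma). Between arrays of the same number the difference was 0.15 and 0.25. The sign rested on single arrays, as the difference was -0.09 without testosterone replicate 2 and -0.04 without control replicate 1. The probe matched chromosome 3 at 113516353 to 113517401 (rn4), a span of 1049 bases that is longer than a probe,.

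Fgf2, basic FGF, which leaves cells without a signal peptide, had a probe printed on 10 spots (A_44_P212850; chromosome 2, 123946945 to 123947004, rn4). Averaged over unflagged spots its levels were -4.88 and -4.06 with testosterone and -4.83 and -4.67 in control. Testosterone replicate 2 stood apart as the highest, while testosterone replicate 1 lay below both control arrays. The difference was 0.29 (-0.60 to 1.17, adjusted p = 1.00 in limma) and turned to -0.12 without testosterone replicate 2. The spots show the precision within an array. Their SD was 0.22 (9 spots) and 0.12 (9 spots) on the testosterone arrays and 0.35 (10 spots) and 0.41 (10 spots) on the control arrays. On the control arrays the spots in columns 57 to 85 varied more, with SDs of 0.49 and 0.50, than the other spots, with SDs of 0.15 and 0.20. At the 8 positions unflagged on every array, testosterone replicate 2 was the highest of the 4 arrays at 7. Testosterone lay above control at 7 of the 8 positions for number 2 and at 3 of 8 for number 1. Spots on an array share its RNA and are not replicates of a condition.

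**Figure D2:**
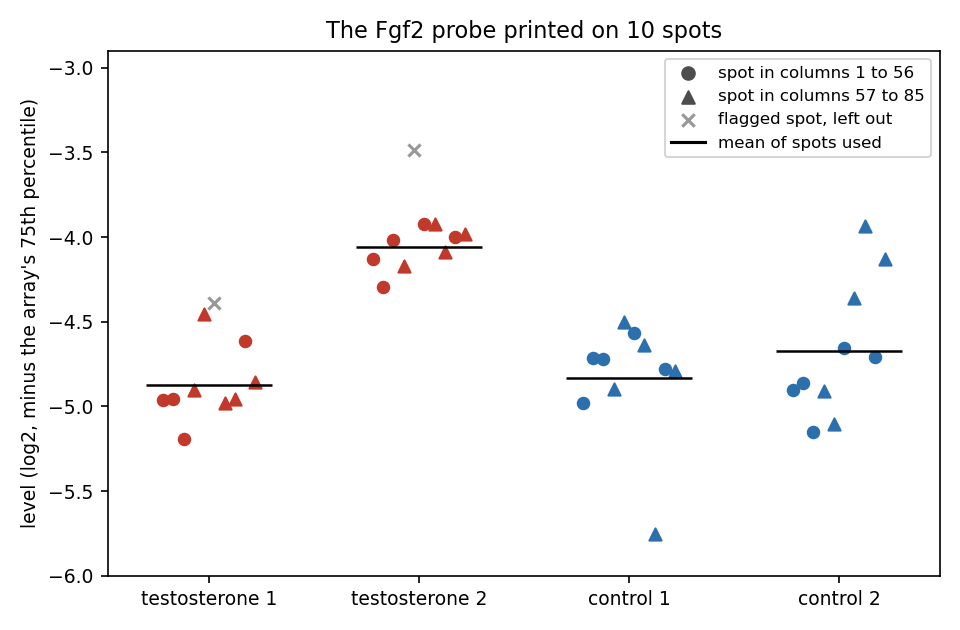
Level of each of the 10 spots of the Fgf2 probe A_44_P212850 on the 4 arrays (y axis, log2 relative to the array's 75th percentile), with triangles for columns 57 to 85, crosses for flagged spots that were left out and a line at the mean of the spots used. Testosterone replicate 2 has a mean of -4.06, above the other 3 means of -4.88, -4.83 and -4.67, and the lowest spot, at -5.76, is on control replicate 1.

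A second Fgf2 probe (A_43_P12014), 0.655 kb further along the gene, also had its highest level on testosterone replicate 2 and its lowest on testosterone replicate 1. Its signals were 5.90 and 10.7 units with testosterone and 11.9 and 11.3 in control, and testosterone replicate 1 was not well above background. Its levels were -6.29 and -5.05 with testosterone, against -5.14 and -5.14 in control, a difference of -0.53 (-1.74 to 0.67) that was 0.09 without testosterone replicate 1. The probe was tested through the control arrays alone, and its difference was -0.14 with a floor at the lowest signal well above background. The 2 Fgf2 probes thus had differences of opposite sign, neither of which passed the test.

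Fgf18, a ligand with roles in bone and lung, was low with testosterone on both arrays. Its signals were 14.8 and 14.9 units with testosterone and 17.8 and 18.9 units in control. Its levels were -4.96 and -4.57 with testosterone and -4.56 and -4.39 in control, so the groups did not overlap, though testosterone replicate 2 and control replicate 1 nearly met. The difference was -0.29 (-0.90 to 0.32; adjusted p = 1.00 in limma). It was negative for both replicate numbers, at -0.41 and -0.18. With normexp background correction and quantile normalization, whose offset of 50 exceeds these signals, it was -0.02. The files give no position for this probe.

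The other 3 ligands were at the limit of detection. Fgf10 was well above background on control replicate 2 alone, with signals of 4.02 and 6.15 units with testosterone and 5.56 and 8.81 units in control. Fgf1, acidic FGF, was undetected on all 4 arrays, at 4.77 and 4.74 units with testosterone and 2.13 and 1.57 units in control, and no fold is given between values below background. Fgf9 was likewise undetected, at 2.73 and 1.88 units with testosterone and 3.70 and 2.14 units in control. For these 3 genes a difference was not measurable at this signal, which does not show that the transcripts were absent. The probes matched chromosome 2 at 50940230 to 50940289, chromosome 18 at 31785788 to 31785847 and chromosome 15 at 37155328 to 37155387 (rn4) in the same order.

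Of the receptors, Fgfr2 and Fgfr1 each had a probe far above background. The Fgfr2 probe A_43_P10225 (chromosome 1, 189483073 to 189483132, minus strand, rn4) read 4253 and 3799 units with testosterone and 3858 and 3823 units in control. Its levels were 3.20 and 3.43 with testosterone and 3.20 and 3.27 in control. The difference was 0.08 (-0.44 to 0.60), the narrowest interval among the FGF probes, which spans 0.74-fold to 1.52-fold. The groups overlapped, with testosterone replicate 2 the highest array. The test was not passed (adjusted p = 1.00 in limma).

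The other Fgfr2 probe (A_43_P16199; 189520232 to 189520291) lies 37.2 kb upstream and was lower on both testosterone arrays. Its signals were 12.1 and 13.3 units with testosterone, against 22.2 and 22.2 units in control. Its levels were -5.25 and -4.73 with testosterone and -4.23 and -4.16 in control, with no overlap. The means were -4.99 ± 0.37 and -4.20 ± 0.05 (SD, n = 2 each), a difference of -0.79 (-1.47 to -0.12), or 0.58-fold (0.36 to 0.92). This was the FGF probe with an unadjusted p under 0.05, and it did not pass the test over all probes (adjusted p = 1.00 in limma). It was negative for both replicate numbers, at -1.02 and -0.57, and the probe lay outside columns 57 to 85. On testosterone replicate 1 its level was near -5.51, the lowest of any probe well above background there. With normexp and quantile normalization, whose offset of 50 exceeds these signals, the difference was -0.16 and its unadjusted p was not under 0.05.

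A pair of probes between these positions is described in the files as FGFR2 fragments, under transcript names rather than the symbol. One of them, 16.6 kb upstream of A_43_P10225, had signals of 44.8 and 41.5 units with testosterone and 41.1 and 49.6 units in control, a difference of -0.05 (-0.68 to 0.57). The other, 34.9 kb upstream and 2.25 kb from A_43_P16199, had levels of -4.01 and -3.92 with testosterone and -4.32 and -4.11 in control. Its difference was 0.26 (-0.27 to 0.78), and the groups did not overlap, with testosterone higher. Neither probe passed the test (each adjusted p = 1.00 in limma), and the 2 probes farthest upstream had differences of opposite sign. Which splice forms each probe detects was not tested.

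**Figure D3:**
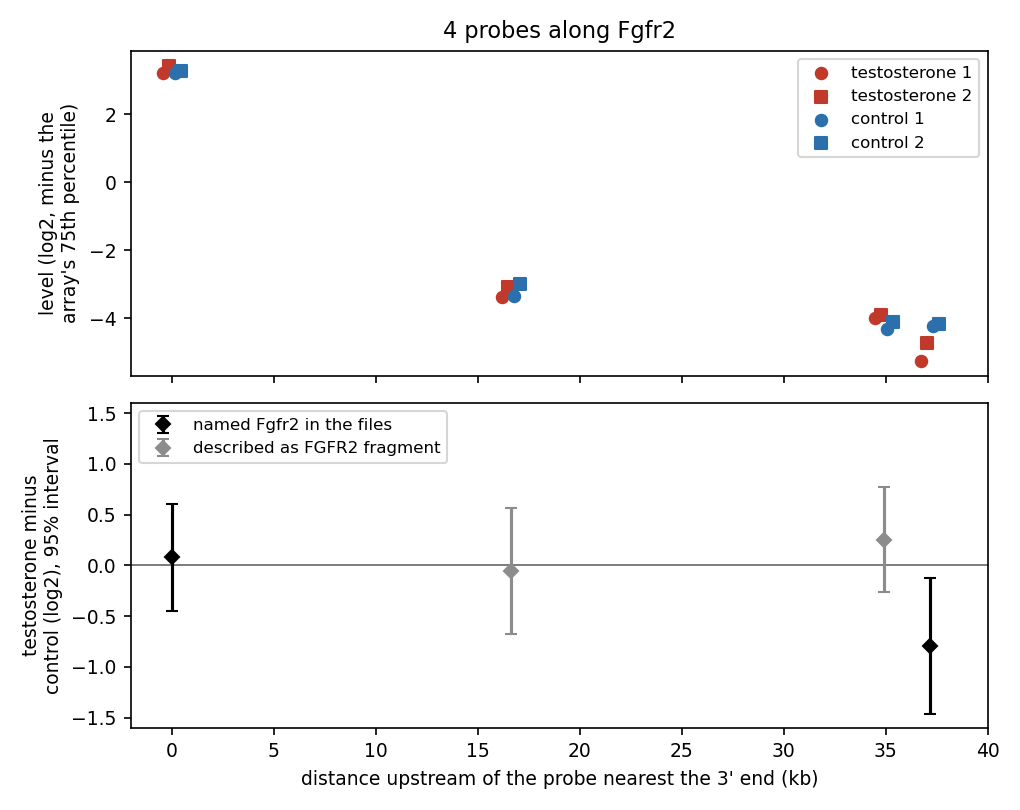
The 4 probes along Fgfr2, by distance upstream of the probe nearest the 3′ end (x axis, kb). The upper panel gives the level on each array (log2 relative to the 75th percentile, testosterone in red and control in blue) and the lower panel testosterone minus control (log2) with limma's 95% interval. The probe 37.2 kb upstream has a difference of -0.79 and its neighbour at 34.9 kb one of 0.26.

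Fgfr1, the main receptor of mesenchymal cells, had a probe (A_44_P475197; chromosome 16, 70870147 to 70870312, minus strand, rn4) whose levels were 2.06 and 1.64 with testosterone and 2.03 and 1.78 in control. The groups overlapped and the array numbered 2 was lower in both, by 0.41 and 0.24. The difference was -0.05 (-0.70 to 0.59). The second Fgfr1 probe (A_44_P264628), 10.1 kb upstream on a partial mRNA, had levels of -4.28 and -3.66 with testosterone and -4.31 and -3.91 in control. There the array numbered 2 was the higher in both groups, and the difference was 0.14 (-0.67 to 0.96). Neither Fgfr1 probe reached the threshold (adjusted p = 1.00 in limma).

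Fgfr3, which restrains growth of cartilage, had the widest interval of the tested FGF probes. The probe under its symbol read 47.3 and 15.6 units with testosterone and 18.6 and 24.1 units in control (chromosome 14, 82684088 to 82684322, rn4). Its levels were -3.29 and -4.50 with testosterone and -4.49 and -4.04 in control, so the testosterone arrays were the highest and the lowest of the 4. The difference of 0.37 had an interval from -0.87 to 1.62 and was -0.23 without testosterone replicate 1. Fgfr4, the receptor best known in liver as that of endocrine FGFs, was steadier (chromosome 17, 15512990 to 15513049, rn4). Its levels were -3.08 and -3.40 with testosterone and -3.13 and -3.49 in control. The arrays differed by number and hardly by group, and the difference was 0.07 (-0.57 to 0.71; adjusted p = 1.00 in limma).

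**Figure D4:**
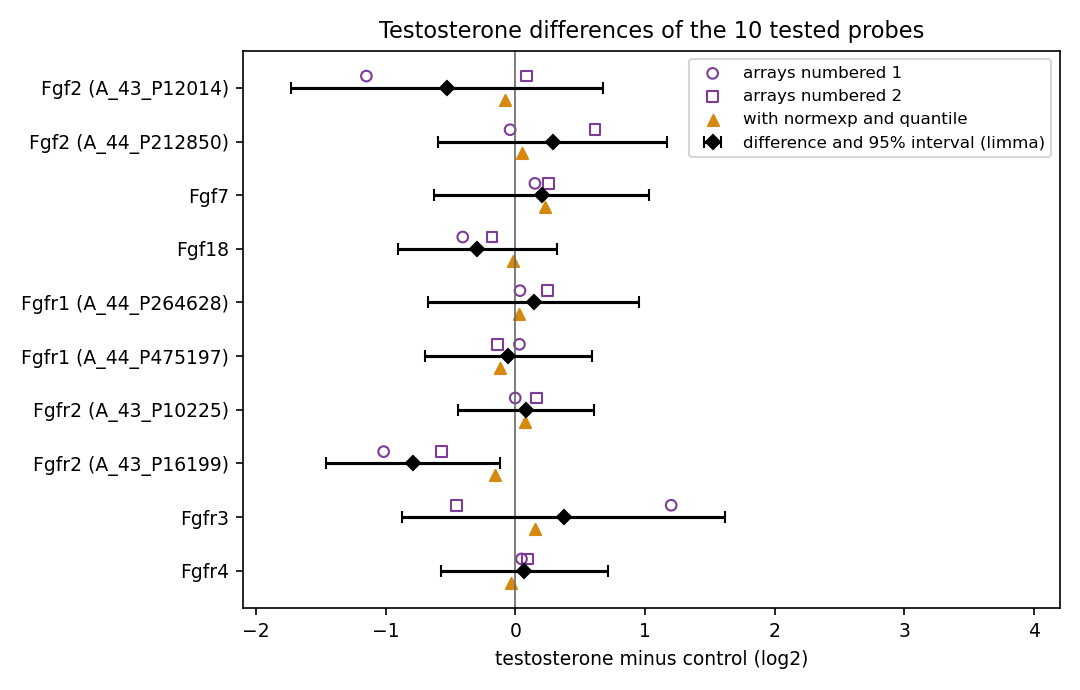
Testosterone minus control (x axis, log2) for the 10 tested FGF probes, as limma's estimate with its 95% interval (diamonds), for arrays of the same number (open circles for 1, open squares for 2) and with normexp and quantile normalization (triangles). The interval excludes 0 for the Fgfr2 probe A_43_P16199 alone, and the triangles lie between -0.16 and 0.23. The normexp offset of 50 exceeds every signal of the Fgf2, Fgf18 and Fgfr3 probes, Fgfr2 A_43_P16199 and Fgfr1 A_44_P264628.

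The levels also differed by replicate number. From number 1 to number 2 the level shifted the same way in both groups for 9 of the 10 tested probes, Fgfr3 being the exception, where 71.6% of all tested probes did so. The testosterone difference had the same sign for both numbers in 5 of the 10 probes, against 44.3% of all tested probes. Those 5 were the probes of Fgf7, Fgf18 and Fgfr4, the upstream Fgfr1 probe and the upstream Fgfr2 probe. The labels do not say that equal numbers share a culture. Of the 4 detected germ cell markers, Tnp1, Tnp2 and Prm1 read higher on number 2 in both groups. From number 1 to number 2 Tnp1 rose by 5.01 with testosterone and 4.39 in control, and Prm1 by 3.08 and 2.65. Ddx4, well above background on 1 of 2 control arrays, shifted by -1.27 with testosterone and 3.64 in control. Whether cell content differed between the numbers was not tested.

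The other genes of the pathway, taken from 6 lists, gave no call either. Of 76 genes with a probe 56 were tested, and 0 passed the test in limma in either direction, with 0 at an unadjusted p under 0.05. Differences were positive for 29 and negative for 27 with a median of 0.0052, beside -0.0087 over all tested probes. The groups were apart for 11 of the 56 genes, with testosterone higher for 5 and lower for 6. The 5 include Spred2, tested through the testosterone arrays alone, and Nras, in a tile of the array with dropped spots. Among all tested probes 15.1% were apart, 6.13% with testosterone higher and 8.95% with it lower.

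Of the 16 other genes of the FGF family 15 were not tested. Among them Fgf13 and Fgf17 were well above background on 2 arrays, Fgf6 on 1 and the rest on none. The tested one was Fgf22, at -4.43 and -3.99 with testosterone and -4.74 and -4.51 in control, a difference of 0.41 (-0.24 to 1.07) with groups apart. With normexp, whose offset of 50 exceeds its signals, the difference was 0.06. Of 10 tested co-receptors and binding proteins 5 were positive and 5 negative. Fgfrl1, a receptor relative with no kinase domain, stood at 2.43 and 2.78 with testosterone and 2.83 and 2.80 in control. Its difference was -0.21 (-0.78 to 0.36). Sdc2, a heparan sulfate proteoglycan of the cell surface, differed by -0.15 and Gpc3, a glypican, by 0.22. The Klotho co-receptors Kl and Klb were not well above background on any array. Of 10 genes that make or edit heparan sulfate 5 were positive. Ext2, a subunit of the chain-building polymerase, differed by -0.30 (-0.81 to 0.21) with the groups apart and testosterone lower, and Sulf1, which removes sulfate groups, by 0.11 (-1.43 to 1.65).

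Among the 16 adaptors and Ras-ERK genes, 9 were positive and 7 negative. The largest positive values were those of Sos1 at 3.41, Grb2 at 2.28 and Nras at 1.72. Each of these 3 probes lay in a tile of the array with dropped spots and read lowest on control replicate 1, Sos1 at 3.12 and 3.01 with testosterone and at -3.95 and 3.26 in control. For number 2 their differences were -0.25, -0.26 and 0.19. Frs2, the docking protein of the FGF receptors, differed by -0.09 (-0.61 to 0.43) and Gab1, an adaptor for PI3 kinase, by -0.29 (-0.81 to 0.23).

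Feedback inhibitors and ERK target genes read out signalling by the pathway in many cells. Of 8 tested inhibitors 5 were positive and 3 negative. Dusp6, a phosphatase of ERK, stood at 2.93 and 2.67 with testosterone and 2.96 and 2.64 in control, a difference of 0.002 (-0.61 to 0.61). Spry1, Spry2 and Spry4, Sprouty inhibitors of receptor signalling, differed by -0.19, 0.05 and 0.28. Spry4 was detected on 2 of 2 testosterone and 1 of 2 control arrays, so it was tested through the testosterone arrays alone. With normexp and quantile normalization, whose offset of 50 exceeds its signals, its difference was 0.05. Dusp5, another ERK phosphatase, differed by 0.11 and Spred3, a Sprouty relative, by -0.23. Spred2 had the largest difference of the inhibitors, with levels of -5.32 and -4.42 with testosterone and -6.37 and -5.36 in control. Its probe had the same detection as that of Spry4. The groups did not overlap, and the difference of Spred2 was 0.99 (-0.31 to 2.29; adjusted p = 1.00 in limma). It was 0.13 with normexp and quantile normalization, whose offset also exceeds the signals of this probe. Of 11 target genes 4 were positive and 7 negative. Etv4 and Etv5, transcription factors induced by FGF signalling, differed by 0.01 and -0.21, Phlda1 by 0.18 (-0.34 to 0.70) and Fos by -0.41 (-1.33 to 0.52). Both Etv4 and Etv5 differed more by replicate number than by group, Etv5 at -0.93 and -2.04 with testosterone and -0.87 and -1.66 in control.

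**Figure D5:**
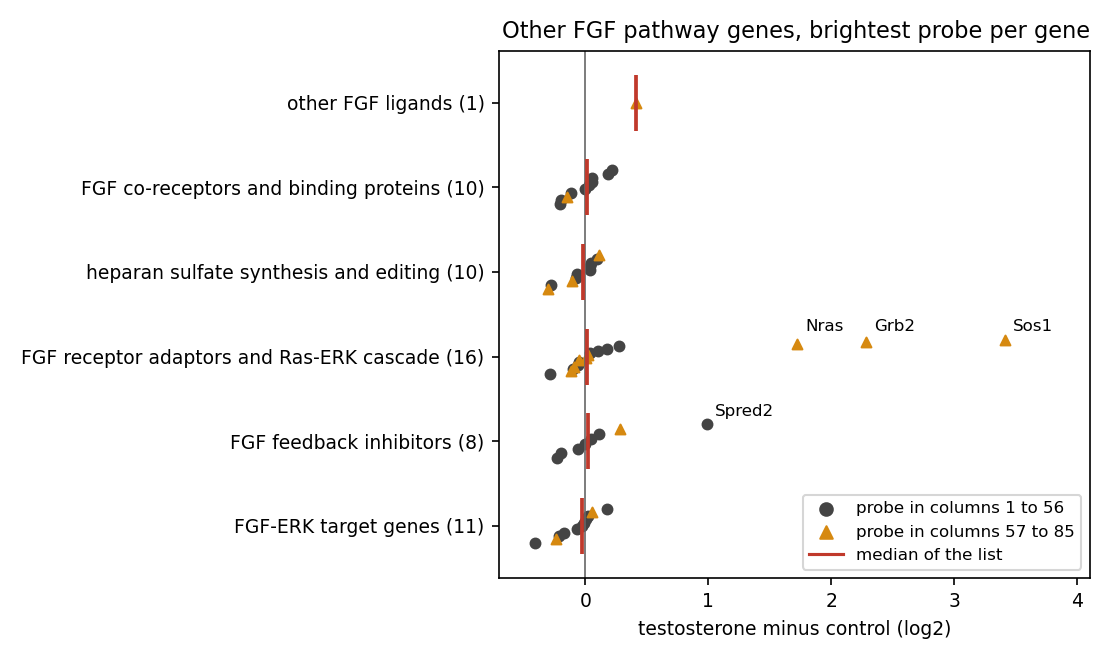
Testosterone minus control (x axis, log2) for the 56 tested genes of 6 FGF pathway lists, each by its brightest probe, with the number of genes in brackets, the list median as a red line and triangles for probes in columns 57 to 85. Most genes lie close to 0, and the 3 values above 1.5 are those of Sos1, Grb2 and Nras.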

How the data were processed

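RNA was labelled with Cy3 after oligo-dT priming, per the labels' protocols. Feature Extraction 11.5.1.1 made the scanner files, with probe positions on rn4, per the file headers, while the submitters' processing notes name version 10.5. Each deposited scanner file gives, for every spot, an intensity as processed signal and as raw mean with its local background. The authors' deposited series table is on the log2 scale and equalled log2 processed signal minus a constant per array (8.79 and 8.38 for testosterone, 8.63 and 8.55 for control). Genes were not centred in it, and its column medians were -3.61 and -3.34 for testosterone and -3.62 and -3.45 for control.

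Here, levels are log2 of the processed signal less the 75th percentile of that array's spots other than controls. Outlier-flagged spots were left out and spots of one probe averaged, and 34 probes with an array missing were not tested. The test was limma's (3.58.1, under R 4.3.3), 2-sided and without covariates, on every detected probe, with Benjamini-Hochberg adjustment over 25880 probes. The procedure was run on simulated data with a common spread for all probes. Those data held no shift by replicate number and no patch of low spots. For a single probe, permuting 2 against 2 arrays gives 0.333 as its smallest exact p, so no permutation test was run. List genes took the brightest tested probe, named through RefSeq (GRCr8, names only). Named genes are all members and, per list, the most positive and the most negative gene among those detected and unsaturated on all 4 arrays, fixed examples and those at least 1.5-fold apart without overlap. The FGFR2 fragment probes and Grb2 were added after their values were seen. Members and lists were chosen with earlier results of these data known. The number of arrays limits the precision. Alternatives covered scaling, background correction, detection, flooring, array area, pairing and leaving out each array.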

Additional observations from a re-analysis of the deposited data

How the results depend on the processing

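In all 14 alternatives 0 FGF probes were called. With all 4 arrays kept, 9 of the 10 differences kept their direction, and Fgfr4 turned to -0.037 with normexp and quantile normalization. Leaving out 1 array in turn moved the difference between -1.15 and 0.088 for Fgf2 (A_43_P12014), -0.12 and 0.69 for Fgf2 (A_44_P212850), -0.092 and 0.50 for Fgf7, -0.17 and 0.45 for Fgfr1 (A_44_P264628), -0.26 and 0.15 for Fgfr1 (A_44_P475197), -0.032 and 0.19 for Fgfr2 (A_43_P10225), -0.23 and 0.98 for Fgfr3, and -0.11 and 0.25 for Fgfr4. Fgf18 (-0.49 to -0.10) and Fgfr2 A_43_P16199 (-1.05 to -0.53) stayed negative throughout. Detection counted 9 of 10 genes with the positive-and-significant flag, an alternative chosen after seeing the data, and 8 without control replicate 1.

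Over all probes, leaving out 1 array called between 0 and 67 higher. The 67 came without control replicate 2, which leaves control replicate 1 as the lone control, assumed to vary like the other group. All 67 lay in columns 57 to 85, 66 of them in tiles with dropped spots, and Sos1 was among them. Probes at least 2-fold apart without overlap numbered 142 higher and 38 lower. They numbered 333 and 131 at 1.5-fold, 58 and 11 at 3-fold, 24 and 0 with normexp and quantile normalization, 610 and 286 without a detection filter, 35 and 4 when detected on all 4 arrays, 92 and 11 with a floor, and 24 and 20 without columns 57 to 85. Leaving out 1 array gave 125 to 725 higher and 120 to 322 lower. The cause of these shifts was not tested beyond what each filter removes.

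The labels do not pair equal replicate numbers. Deviations of same-numbered arrays correlated at 0.589 over 24488 probes, and with the replicate block 0 probes were called, 740 had an unadjusted p under 0.05 (208 without it), and no FGF call changed. Signals near background limit Fgf1, Fgf9 and Fgf10, which were not tested, and also some tested probes. The lowest level well above background on testosterone replicate 1 was -5.51. There Fgfr2 A_43_P16199 was at -5.25, Fgf18 at -4.96 and Fgf2 A_44_P212850 at -4.88. Fgf2 A_43_P12014, at -6.29, lay below it.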

Other observations

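Other probes of the family carry other names in the files. TC608741, described as partly like FGFR3 but placed on chromosome 14 away from the Fgfr3 probe, had levels of -0.94 and -0.46 with testosterone and -1.04 and -0.99 in control. Its groups did not overlap, and its difference was 0.32 (-0.33 to 0.96), which did not pass the test. LOC500109, described as like Fgfr1 but placed on chromosome 4, had levels of -1.49 and -1.80 with testosterone and -1.19 and -1.77 in control. Its difference was -0.16 (-0.92 to 0.60). TC579457, AF000144 and ENSRNOT00000040791, described as like Fgf1, Fgfr1 and Fgfr3, were not well above background on any array. Each matched close to the probe of that gene, on the same strand (rn4). TC579457 matched chromosome 18 at 31784546 to 31784605 and ENSRNOT00000040791 chromosome 14 at 82688053 to 82688112. AF000144, on chromosome 16 at 70879248 to 70879307, lay between the 2 Fgfr1 probes.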
